A study of Rattus norvegicus with 24 samples.

Results

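A set of 10 genes commonly used as markers of the non-myocytes in a heart cell culture was followed across all 24 libraries of a rat experiment. They were taken as a list of symbols from the deposited gene-level table, and the list was chosen with earlier results of these data known. All 10 were found among 21767 genes, and all 10 passed the filter on low counts, which kept 14303 genes. The list holds Thy1, Pdgfra, Lum, Dcn, Postn and Dkk3, used mostly as fibroblast markers, and Pdgfrb, Acta2, Tagln and Smtn, used mostly for mural cells, the pericytes and smooth muscle cells of vessel walls. PolyA RNA came from cultured ventricular myocytes of neonatal Sprague-Dawley rats. Every culture received a synthetic microRNA mimic by lipid transfection the day after plating, and treatment followed 48 h later for 24 h. The 8 groups were doxorubicin with the miR-222 mimic, doxorubicin with the miR-455 mimic, doxorubicin with both mimics, doxorubicin with the control mimic, and the same 4 mimic conditions with a control treatment in place of doxorubicin, with 3 libraries each. A mimic given alone means one given without doxorubicin. The miR-222-3p mimic, the miR-455-3p mimic and the control were each used at 5 nM, and whether single-mimic wells were brought to the same total dose is not stated in the labels. The doxorubicin dose is 4 uM in the sample protocol and 4 mM in the series text. No group went without a mimic, so the control-mimic cultures are the reference for both mimics. The study asked whether these microRNAs protect heart cells from doxorubicin together.

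Doxorubicin is an anthracycline cancer drug that traps topoisomerase II on DNA and is known for its toxicity to the heart. Cultures of neonatal heart cells are enriched for cardiomyocytes, yet fibroblasts and mural cells commonly persist in them and can divide while cardiomyocytes mostly do not. Fibroblasts make the collagens and proteoglycans of the matrix and respond to platelet-derived growth factor (PDGF) through 2 receptors. When activated they can take up smooth muscle actin, so the contractile genes mark both mural cells and activated fibroblasts. Immature cardiomyocytes can express smooth muscle actin too.

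A microRNA binds messenger RNAs largely through its seed, bases 2 to 8 from its 5′ end. The mature rat forms are shown because they are the microRNAs that the mimics are named for. The sequences are from RefSeq on build GRCr8, and the labels do not give the mimics' own sequence or chemistry. Capitals mark the seed.
rno-miR-222-3p: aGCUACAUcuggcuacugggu
rno-miR-455-3p: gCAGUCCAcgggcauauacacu
The miR-222-3p sequence lies on the plus strand at chrX:6022682-6022702, and miR-455-3p on the plus strand at chr5:81704881-81704902. Of 724 mature rat sequences in the table used, rno-miR-221-3p shares the miR-222-3p seed, and none shares that of miR-455-3p.

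The libraries held 17311955 to 25750311 counts, and 11469 to 13524 genes had at least 10 counts. Transcripts of 13 mitochondrial genes took 5.54% to 38.2% of counts, with the highest share in replicate 1 of doxorubicin with the control mimic. That library was among the 4 with the fewest detected genes. The rest of these were control replicate 1 without the drug, replicate 2 of doxorubicin with both mimics and replicate 3 of both mimics without it. Their mitochondrial shares were 20.3%, 21.3% and 24.9%. Values below are in CPM, the count of a gene relative to the library total after TMM scaling, and a level is not compared between genes because no transcript lengths were used. The RNA was from whole cultures, so fewer cells of a type and less RNA per cell cannot be told apart. The labels do not say which animals or culture days lie behind the replicates, and p-values then measure only the spread between these samples, which may be technical. Some replicates were unusually alike. Replicates 1 and 2 with the miR-222 mimic alone, 1 and 3 with the miR-455 mimic alone, 1 and 2 with both mimics and no drug, and all 3 with doxorubicin and the miR-455 mimic gave a chi-square of 5.97 to 10.2 per degree of freedom over genes. The other replicate pairs gave 54.6 to 603, and sampling noise would give about 1. All libraries were kept as separate samples because the labels list them so, and whether the close ones come from 1 culture is not stated there. Counts of called genes are also given with these close libraries counted as 1 sample, a choice made after seeing the data. Summed per library, the 6 fibroblast genes of the list came to 361 to 3683 CPM and the 12 cardiomyocyte markers to 23909 to 71124 CPM. The 17 other fibroblast markers came to 17568 to 59389 CPM. These sums hold different genes and were not read as shares of cells. Of the defining pericyte markers, Rgs5 had a median of 0.0722 CPM, and Vtn and Higd1b were at 0 in 15 of 24 libraries. Of the other mural markers some were higher, with medians of 31.5 CPM for Cspg4, 36.4 for Notch3, 62.9 for Anpep, 96.6 for Mcam and 212 for Abcc9. The rest were low, with medians of 0.328 CPM for Kcnj8, 1.09 for Steap4, 2.28 for Heyl and 3.35 for Angpt1. Which cells these transcripts came from was not tested. The 9 endothelial markers summed to 14.4 to 67.8 CPM per library. Cldn5 was at 0 in all 24, and Tek and Kdr had medians of 16.3 and 10.2 CPM. The 12 macrophage and leukocyte markers summed to 9.27 to 28.2 CPM, where Ptprc did not exceed 0.754 CPM and Cd14 had a median of 7.13 CPM.

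Doxorubicin had unequal effects on the 10 genes. Averaged over the 4 mimic conditions, Dkk3, Dcn, Pdgfrb and Tagln rose and Acta2 fell, while Thy1, Pdgfra, Lum, Postn and Smtn did not pass the test. Dkk3, a secreted glycoprotein of the Dickkopf family, rose most, 2.33-fold (log2 fold change 1.22 ± 0.13 SE, edgeR quasi-likelihood adjusted p = 1.64e-07). The Dcn change was 0.60 ± 0.12 on the log2 scale (edgeR adjusted p = 5.04e-04), and those of Pdgfrb and Tagln were 0.58 ± 0.19 and 0.52 ± 0.17 (edgeR adjusted p = 0.0173 and 0.0149). Acta2 fell by 0.97 ± 0.33 (edgeR adjusted p = 0.0188). These 5 of 10 calls compare with 48.1% of all tested genes in the same comparison, so the share is near the background. The median change of the 10 was 0.34 and that of all tested genes -0.02. Each of the 5 calls was kept in all 24 refits that left out 1 library, and with close libraries counted as 1 the calls for Dkk3 and Dcn were kept.

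With the control mimic, doxorubicin changed 3 of the 10 genes, against 27.5% of all tested genes. Dkk3 and Dcn rose and Pdgfra fell. The libraries of the 2 groups did not overlap for 5 of the 10, against 33.5% of all genes. With the miR-222 mimic, doxorubicin raised Dkk3 and Pdgfrb, which made 2 of 10 against 14.6% of all genes. In the miR-455 cultures Dkk3 rose and Acta2 fell, 2 of 10 against 18.1%. With both mimics only Pdgfrb rose, 1 of 10 against 15.1%. In each of these 4 comparisons the share of members called was not far from the background. With close libraries counted as 1 the calls numbered 1 with the control mimic, where 17.2% of all genes were called, and 0 in each of the other 3. In those 3, called genes made up 3.66% of the tested ones for miR-222, 0.323% for miR-455 and 3.76% for both mimics.

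The mimics moved the list mostly downward. Relative to the control mimic and without doxorubicin, the miR-222 mimic lowered 7 of the 10 genes, against 4.47% of all tested genes lowered (8.97% called in either direction). The 7 were Thy1, Pdgfrb, Lum, Postn, Dkk3, Tagln and Smtn. The libraries of the 2 groups did not overlap for 9 of 10 members, against 37.8% of all genes, and the median change was -1.26 for the members and 0.06 for all genes. Both mimics together lowered 6 genes, Thy1, Pdgfra, Pdgfrb, Lum, Dkk3 and Smtn, against 3.39% of all genes lowered and 7.06% in either direction. Their libraries did not overlap with those of the control mimic for 6 members, against 21.2% of all genes. The miR-455 mimic lowered 2, Lum and Dcn, against 2.25% of all genes lowered and 4.72% in either direction. Its libraries were apart from the control libraries for 7 members, against 29% of all genes in either direction. Among the 7, Tagln lay above the control libraries and the rest below. These 3 comparisons share the control-mimic libraries, so their values are given side by side and not as separate support. With close libraries counted as 1, the counts were 0 for the miR-222 mimic, 1 for both mimics and 0 for the miR-455 mimic. That setting called 48, 54 and 2 of all genes. The member call kept for both mimics was that of Dkk3.

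Under doxorubicin 3, 2 and 2 members passed for miR-222, miR-455 and both mimics. The miR-222 mimic lowered Thy1, Lum and Dkk3, 3 of 10 against 2.36% of all genes lowered and 3.95% called. The miR-455 mimic lowered Dcn and Dkk3, 2 of 10 against 1.85% lowered and 2.5% called. Both mimics lowered Thy1 and Dkk3, 2 of 10 against 2.78% lowered and 5.55% called. With close libraries counted as 1, the calls numbered 1, 0 and 2, against 1.22%, 0% and 1.8% of all genes called. Leaving out single libraries gave 1 to 4, 1 to 2 and 2 to 2 calls. A call lost under doxorubicin is not a difference between the treatments, which is tested further on.

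**Figure D1:**
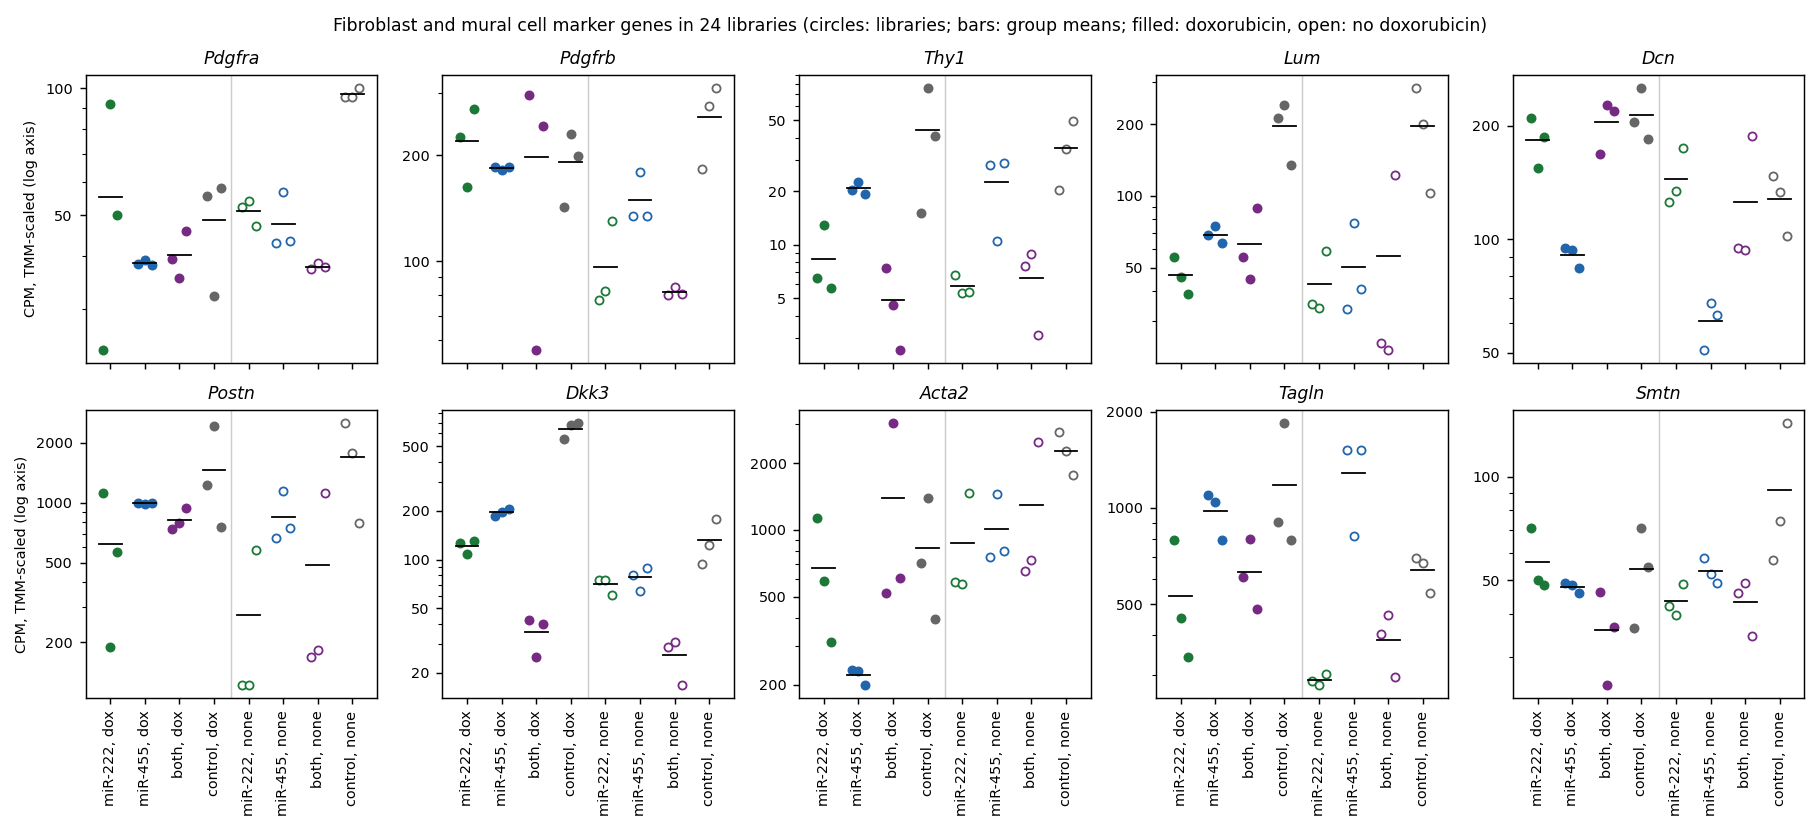
Level of each of the 10 marker genes in CPM (log axis) in every library, by mimic, with doxorubicin (filled) left of the same mimic conditions without it (open); bars are group means. Dkk3 stood at 556 to 697 CPM with doxorubicin and the control mimic, above every other library, and the group means of Thy1 were lowest in the 4 groups that received miR-222.

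The clearest pattern was that of Dkk3, which in many tissues is a secreted modulator of Wnt and TGF-beta signalling. With doxorubicin and the control mimic its level was 556, 676 and 697 CPM, against 93.9, 124 and 178 CPM with the control mimic alone. All 3 doxorubicin libraries were about 3 times or more above the highest untreated one. The change was 4.88-fold (log2 2.29 ± 0.26, edgeR adjusted p = 3.81e-06).

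With the miR-455 mimic, Dkk3 reached 186, 196 and 205 CPM with doxorubicin, against 81.0, 64.0 and 88.9 CPM without it. The groups did not overlap, and the rise was 1.33 ± 0.26 on the log2 scale (edgeR adjusted p = 0.00128). With the miR-222 mimic, the values were 126, 109 and 129 CPM with doxorubicin, against 75.1, 75.3 and 60.6 CPM without. These too were apart, with a rise of 0.79 ± 0.25 (edgeR adjusted p = 0.0419) that was lost when any 1 of the 6 libraries was left out (edgeR adjusted p from 0.0624 to 0.147). With both mimics, Dkk3 had 42.5, 24.9 and 40.0 CPM with doxorubicin, against 28.8, 31.2 and 16.9 CPM without. Here the libraries overlapped and the change of 0.48 ± 0.25 did not pass (edgeR adjusted p = 0.223).

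Every mimic lowered Dkk3 under doxorubicin relative to the control mimic. The difference was 18-fold for both mimics (log2 -4.17 ± 0.29, edgeR adjusted p = 3.1e-08), 5.3-fold for miR-222 (-2.40 ± 0.27, edgeR adjusted p = 2.05e-05) and 3.29-fold for miR-455 (-1.72 ± 0.26, edgeR adjusted p = 6.4e-04). None of these 3 calls was lost on leaving out a library. With close libraries counted as 1, where doxorubicin with miR-455 has 1 sample, the miR-455 call was lost (edgeR adjusted p = 0.568) and the other 2 were kept. Without doxorubicin Dkk3 fell by 2.36 ± 0.27 with both mimics (edgeR adjusted p = 5.19e-05). With the miR-222 mimic it fell by 0.91 ± 0.25 (edgeR adjusted p = 0.032), a call that ended without any replicate of that mimic or without control replicate 2 or 3 (edgeR adjusted p from 0.0591 to 0.0953). For miR-455 the difference was -0.76 ± 0.25 (edgeR adjusted p = 0.0807). By group means the order was doxorubicin with the control mimic, doxorubicin with miR-455, control mimic alone, doxorubicin with miR-222, miR-455 alone, miR-222 alone, doxorubicin with both, and both without the drug. Neighbours overlapped at the control mimic alone against doxorubicin with miR-222, at miR-455 against miR-222 alone, and between the 2 groups with both mimics.

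Thy1, the surface glycoprotein CD90 of fibroblasts and other mesenchymal cells, was low wherever miR-222 was given. With both mimics and doxorubicin it had 7.44, 4.60 and 2.58 CPM, and with the miR-222 mimic and doxorubicin 6.47, 12.9 and 5.68 CPM, against 15.1, 76.3 and 40.9 CPM with doxorubicin and the control mimic. Neither mimic group overlapped with the control group, whose own libraries spread about 5-fold. The log2 change of Thy1 was -3.17 ± 0.57 with both mimics (edgeR adjusted p = 0.00177) and -2.40 ± 0.55 with miR-222 (edgeR adjusted p = 0.0151). The miR-222 call ended without replicate 1 or 3 of that mimic or without control replicate 2 (edgeR adjusted p from 0.0803 to 0.107). It also ended with close libraries counted as 1, where the call for both mimics was kept. Neither call was kept in a fit of only the compared groups.

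Without doxorubicin, Thy1 stood at 6.81, 5.39 and 5.41 CPM with the miR-222 mimic and at 7.57, 8.85 and 3.11 CPM with both, against 20.3, 34.5 and 49.9 CPM with the control mimic. Again all libraries with miR-222 lay below all control libraries. The log2 changes were -2.57 ± 0.56 for miR-222 (edgeR adjusted p = 0.00832) and -2.42 ± 0.55 for both mimics (edgeR adjusted p = 0.0131). Leaving out replicate 2 of the miR-222 mimic, or replicate 1 of both mimics, moved the edgeR adjusted p to 0.0538 and 0.0543. Both calls were lost with close libraries counted as 1. The miR-455 mimic gave 20.4, 22.5 and 19.3 CPM with doxorubicin and 28.0, 10.5 and 29.0 CPM without, and neither difference from the control mimic passed (-1.09 ± 0.53 and -0.63 ± 0.53, edgeR adjusted p = 0.435 and 0.455). Doxorubicin itself left Thy1 without a call in all 4 mimic conditions.

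Pdgfra and Pdgfrb encode the alpha and beta receptors for PDGF, the first typical of fibroblasts and the second of pericytes and smooth muscle cells as well. Pdgfra was highest with the control mimic alone. Doxorubicin with the control mimic gave 55.5, 32.2 and 58.2 CPM, against 95.6, 95.6 and 100 CPM with the control mimic alone. The untreated libraries lay close together and above all the treated ones, and Pdgfra was 2-fold lower with the drug (log2 -1.0 ± 0.31, edgeR adjusted p = 0.0214). Without doxorubicin replicate 2 that call was lost (-0.78, edgeR adjusted p = 0.107).

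With both mimics and no drug, Pdgfra had 37.2, 38.5 and 37.7 CPM, below every control library, a log2 change of -1.36 ± 0.31 (edgeR adjusted p = 0.0135). That call ended without replicate 1 or 2 of both mimics (edgeR adjusted p = 0.0599 at most). The single mimics gave 52.2, 54.1 and 47.1 CPM with miR-222 and 42.9, 56.7 and 43.4 CPM with miR-455. They were also below all control libraries and narrowly missed the threshold (-0.93 ± 0.31 and -1.03 ± 0.31, edgeR adjusted p = 0.0643 and 0.0599). Under doxorubicin Pdgfra had 24.0, 91.8 and 50.1 CPM with miR-222, 38.3, 39.2 and 38.1 CPM with miR-455 and 39.3, 35.5 and 46.0 CPM with both mimics. All 3 groups overlapped with the control mimic, and none of the differences passed (0.19 ± 0.31, -0.33 ± 0.31 and -0.27 ± 0.31, edgeR adjusted p = 0.827, 0.788 and 0.691).

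Pdgfrb was lower with miR-222 in untreated cultures and higher when the drug was added to them. It had 77.7, 82.4 and 130 CPM with the miR-222 mimic and 80.3, 84.4 and 81.0 CPM with both mimics, against 183, 275 and 311 CPM with the control mimic, all without doxorubicin. The groups did not overlap, and the log2 changes were -1.41 ± 0.39 and -1.65 ± 0.40 (edgeR adjusted p = 0.0308 and 0.0166). With doxorubicin the values were 225, 163 and 271 CPM with the miR-222 mimic, above all untreated libraries of that mimic, a rise of 1.18 ± 0.39 (edgeR adjusted p = 0.0469). With both mimics and the drug they were 296, 56.2 and 242 CPM, a rise of 1.27 ± 0.39 (edgeR adjusted p = 0.0328). Replicate 2 of that group lay below every untreated library with both mimics, and it was also among the 4 libraries with the fewest detected genes.

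Under doxorubicin the control mimic gave 143, 230 and 200 CPM of Pdgfrb and the miR-455 mimic 185, 182 and 186 CPM, and no mimic passed the test there (0.20 ± 0.39 for miR-222, -0.05 ± 0.39 for miR-455 and 0.05 ± 0.39 for both, edgeR adjusted p = 0.851, 0.99 and 0.96). With miR-455 alone Pdgfrb was 134, 180 and 134 CPM, below all control libraries, and did not pass (-0.78 ± 0.39, edgeR adjusted p = 0.212). Single libraries decided most of the Pdgfrb calls. The rise with miR-222 was lost without drug replicate 1 or 3 or untreated replicate 1 or 2, and the rise with both mimics without any 1 of 5 libraries, all but drug replicate 2 (edgeR adjusted p up to 0.178 and 0.158). The lower level with miR-222 alone was lost without its replicate 1 or 2 or control replicate 2 or 3, and that with both mimics without their replicate 1 or 2 (edgeR adjusted p up to 0.134 and 0.07).

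Lum and Dcn encode lumican and decorin, small leucine-rich proteoglycans that bind collagen fibrils. Both were called lower with miR-455 alone, Lum also with miR-222. Lum was high with the control mimic whether or not the drug was given. Doxorubicin with the control mimic gave 212, 240 and 135 CPM, against 284, 201 and 103 CPM with the control mimic alone, with the same mean of 196 CPM. The ranges overlapped over most of their length.

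With doxorubicin, Lum was 55.5, 45.6 and 38.7 CPM with miR-222, 68.4, 74.7 and 63.4 CPM with miR-455 and 55.4, 44.8 and 89.0 CPM with both. All 9 libraries lay below the 3 control libraries. The miR-222 difference passed (-2.07 ± 0.53, edgeR adjusted p = 0.0304), and those of miR-455 and of both mimics did not (-1.51 ± 0.52 and -1.63 ± 0.52, edgeR adjusted p = 0.181 and 0.072).

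Without doxorubicin, Lum was 35.4, 33.8 and 58.5 CPM with miR-222, 33.5, 77.3 and 40.9 CPM with miR-455 and 24.2, 22.7 and 122 CPM with both mimics. Replicate 3 with both mimics was the only library that reached the control range, and it was among the 4 libraries with the fewest detected genes. The changes were -2.20 ± 0.53, -1.95 ± 0.53 and -1.80 ± 0.53 on the log2 scale (edgeR adjusted p = 0.0153, 0.0404 and 0.0431). Each was lost on leaving out some libraries. Replicates 1 and 2 of miR-222, 1 and 3 of miR-455 and 1 and 2 of both mimics each decided their own comparison, as did control replicate 1 in all 3 and control replicate 2 in the last 2 (edgeR adjusted p up to 0.0828, 0.2 and 0.181). The miR-222 call under doxorubicin was lost without any 1 of its 3 replicates or control replicate 1 or 2 (edgeR adjusted p up to 0.15).

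Dcn passed the test for miR-455 and not for miR-222. With doxorubicin and the miR-455 mimic it had 94.7, 93.8 and 84.1 CPM, against 204, 252 and 184 CPM with doxorubicin and the control mimic. The libraries were apart, with a log2 change of -1.23 ± 0.25 (edgeR adjusted p = 0.00861), lost when replicate 3 with miR-455 was left out (edgeR adjusted p = 0.0707). The call was also lost with close libraries counted as 1, where doxorubicin with miR-455 has 1 sample. Without the drug miR-455 gave 51.0, 67.6 and 63.1 CPM, against 147, 134 and 102 CPM with the control mimic, and the change of -1.07 ± 0.25 passed (edgeR adjusted p = 0.0242). That call ended without replicate 1 or 3 of miR-455 or control replicate 1 or 2 (edgeR adjusted p up to 0.142). It also ended with close libraries counted as 1, and in a fit of only the compared groups.

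The miR-222 mimic left Dcn at 210, 154 and 187 CPM with the drug and 126, 134 and 175 CPM without, within or near the control ranges. Its log2 differences from the control mimic were -0.22 ± 0.25 and 0.18 ± 0.25 (edgeR adjusted p = 0.737 and 0.654). With both mimics Dcn was 168, 228 and 219 CPM with the drug and 94.9, 93.9 and 187 CPM without, and neither difference from the control passed (-0.06 ± 0.25 and -0.03 ± 0.25, edgeR adjusted p = 0.925 and 0.973). Doxorubicin raised Dcn with the control mimic by 0.74 ± 0.25 (edgeR adjusted p = 0.0307), with no overlap between the groups. Without treated replicate 2, or any 1 of the control-mimic libraries without the drug, that call was lost (edgeR adjusted p up to 0.137).

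Postn encodes periostin, a matricellular protein of activated fibroblasts. It varied widely within groups. Without doxorubicin it was 122, 122 and 578 CPM with the miR-222 mimic, against 2509, 1765 and 795 CPM with the control mimic. The groups did not overlap, and the change was -2.62 ± 0.76 (edgeR adjusted p = 0.0361), which was lost without replicate 1 or 2 of either group (edgeR adjusted p up to 0.162).

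With both mimics and no drug Postn was 169, 182 and 1112 CPM, and with miR-455 alone 663, 1137 and 745 CPM. The third library with both mimics exceeded a control library, and neither change passed (-1.79 ± 0.74 and -0.99 ± 0.72, edgeR adjusted p = 0.147 and 0.387). With doxorubicin the levels were 1115, 189 and 567 CPM with miR-222, 996, 981 and 997 CPM with miR-455, 737, 787 and 945 CPM with both and 1231, 2407 and 752 CPM with the control mimic. None of the mimic differences passed under the drug (-1.23 ± 0.72, -0.56 ± 0.72 and -0.83 ± 0.72, edgeR adjusted p = 0.437, 0.862 and 0.577), and doxorubicin gave no call for Postn with any mimic.

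Acta2, Tagln and Smtn encode smooth muscle alpha-actin, the actin-binding protein transgelin (SM22) and smoothelin. In vascular smooth muscle all 3 are targets of serum response factor (SRF), which binds CArG boxes, and of its coactivator myocardin. The Acta2 promoter is shown because 2 CArG-like runs lie in it. It spans 250 bases before to 50 bases after the transcript start at chr1:241172454-241172753 on the minus strand (RefSeq, build GRCr8), with the runs in capitals.
Acta2: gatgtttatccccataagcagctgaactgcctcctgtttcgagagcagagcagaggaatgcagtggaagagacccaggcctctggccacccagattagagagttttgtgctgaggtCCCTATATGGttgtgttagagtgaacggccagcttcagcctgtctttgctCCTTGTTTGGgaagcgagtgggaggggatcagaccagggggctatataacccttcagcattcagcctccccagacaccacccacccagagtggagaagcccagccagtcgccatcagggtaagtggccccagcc
The runs start 134 and 84 bases before the transcript start. A CArG-like run was counted where the core between CC and GG held at most 1 base other than A or T, and the pattern reads alike on both strands. Of 33469 rat promoters of the same length, 9.42% held at least 1 such run and 0.846% held 2 or more. An exact CArG box was found in 1.64% of promoters and not in that of Acta2. Promoters were matched for 5 of the 10 members, Pdgfra, Lum, Postn, Acta2 and Smtn, and neither form was found in the other 4. A match is a description of the sequence and says nothing of binding in these cells.

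Acta2 was lowest with doxorubicin and miR-455. It had 234, 230 and 200 CPM there, against 757, 1450 and 807 CPM with miR-455 alone. The groups were apart by more than 3-fold and the change was -2.18 ± 0.68 (edgeR adjusted p = 0.03). The call was lost without any 1 of the treated libraries or without untreated replicate 2 or 3 (edgeR adjusted p up to 0.101). With the control mimic Acta2 was 706, 1392 and 398 CPM with the drug, against 2757, 2269 and 1763 CPM without. These libraries did not overlap either, and the change of -1.44 ± 0.66 did not pass (edgeR adjusted p = 0.113).

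With both mimics 1 library each stood far from its replicates for Acta2. The values were 517, 3041 and 606 CPM with doxorubicin, against 656, 731 and 2495 CPM without, a log2 difference of 0.10 ± 0.65 (edgeR adjusted p = 0.944). With the miR-222 mimic they were 1130, 586 and 312 CPM with the drug, against 579, 571 and 1473 CPM without, and did not pass (-0.37 ± 0.65, edgeR adjusted p = 0.785). All 3 libraries with the miR-222 mimic alone lay below the control-mimic libraries, and that difference did not pass (-1.37 ± 0.66, edgeR adjusted p = 0.183). Nor did the other mimic differences of Acta2, the furthest from 0 being -1.91 ± 0.67 for miR-455 under doxorubicin (edgeR adjusted p = 0.191).

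Tagln was steady at a low level with the miR-222 mimic alone. It had 286, 279 and 303 CPM, against 697, 672 and 543 CPM with the control mimic, a change of -1.14 ± 0.34 (edgeR adjusted p = 0.0409) that was lost without any replicate of miR-222 or control replicate 1 or 2 (edgeR adjusted p up to 0.139). The miR-455 mimic alone gave 1520, 819 and 1515 CPM, all above the control libraries, with a change of 1.01 ± 0.34 that did not pass (edgeR adjusted p = 0.0805). With doxorubicin and the control mimic Tagln was 902, 1848 and 795 CPM, above all control-mimic libraries without the drug, and the change of 0.89 ± 0.34 missed the threshold (edgeR adjusted p = 0.0553). With doxorubicin, Tagln had 796, 452 and 342 CPM with miR-222, 1099, 1046 and 793 CPM with miR-455 and 609, 798 and 483 CPM with both mimics. Relative to the control mimic the differences were -1.16 ± 0.34, -0.27 ± 0.34 and -0.91 ± 0.34, and none passed (edgeR adjusted p = 0.0632, 0.856 and 0.126). With both mimics and no drug Tagln had 403, 462 and 296 CPM, below all control libraries, and did not pass either (-0.72 ± 0.34, edgeR adjusted p = 0.206).

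Smtn was 42.1, 39.5 and 48.8 CPM with miR-222 alone and 46.0, 49.2 and 34.5 CPM with both mimics and no drug, against 57.2, 74.3 and 144 CPM with the control mimic. Control replicate 3 was far above the other 2 controls, and both mimic groups lay below all 3. The changes were -1.08 ± 0.30 for each (edgeR adjusted p = 0.0329 and 0.0367). Without control replicate 3 they were -0.62 and -0.63 and no longer passed, and replicates 1 and 2 of miR-222, or any replicate of both mimics, also decided the call (edgeR adjusted p up to 0.127 and 0.167). With miR-455 alone Smtn had 58.2, 52.1 and 49.2 CPM, and the change of -0.79 ± 0.30 did not pass (edgeR adjusted p = 0.116). With doxorubicin it had 70.9, 50.1 and 48.4 CPM with miR-222, 49.1, 48.6 and 46.0 CPM with miR-455, 46.3, 24.8 and 36.6 CPM with both mimics and 36.2, 70.9 and 54.7 CPM with the control mimic. Each mimic group overlapped with the control mimic, and Smtn had no call in any comparison with the drug.

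**Figure D2:**
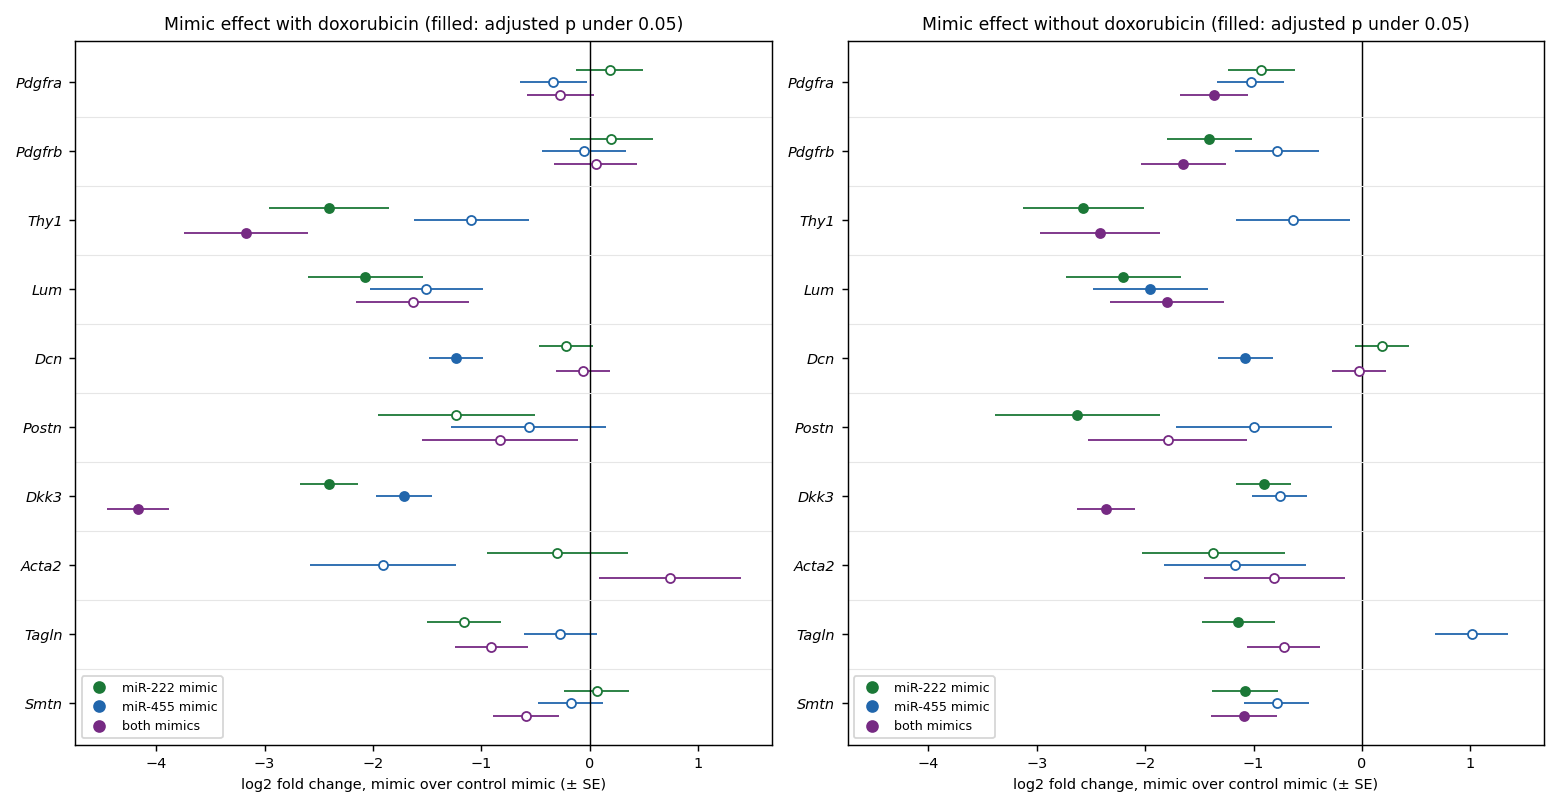
Log2 fold change of each member with the miR-222 mimic, the miR-455 mimic or both mimics over the control mimic, with and without doxorubicin (points, ± SE; filled where the adjusted p was under 0.05). Dkk3 reached -4.17 with both mimics and doxorubicin, Thy1 was called for both treatments that held miR-222, and Dcn for miR-455 with and without the drug.

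**Figure D3:**
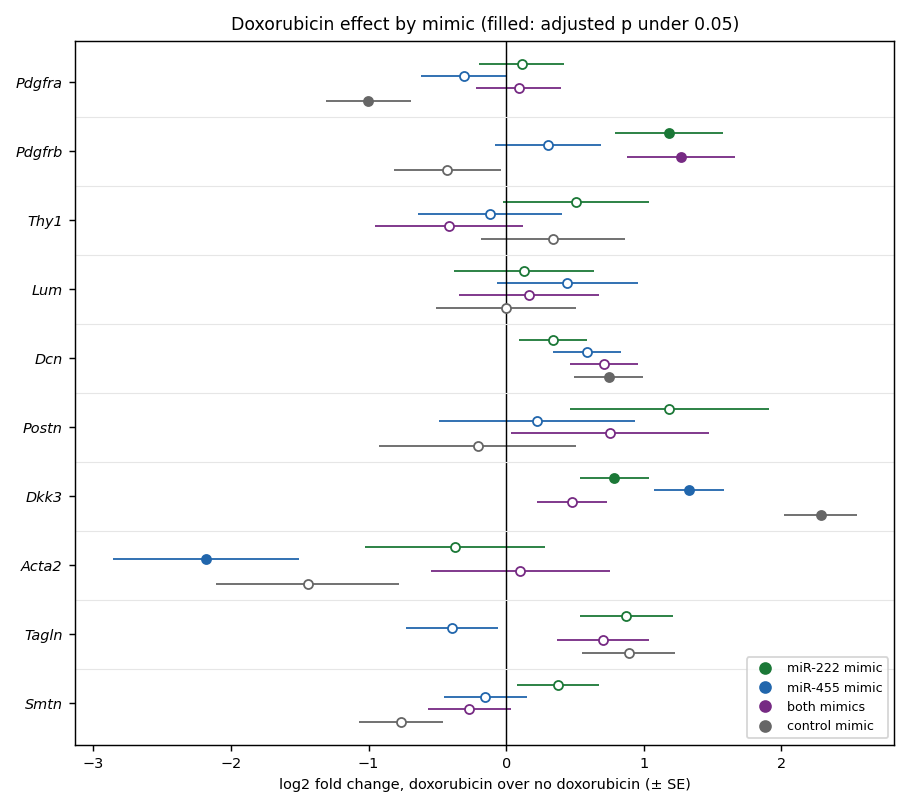
Log2 fold change of each member with doxorubicin over no doxorubicin, by mimic condition (points, ± SE; filled where the adjusted p was under 0.05). The Dkk3 point is at 0.48 with both mimics, against 2.29 with the control mimic, and Pdgfrb was called with miR-222 and with both mimics.

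Whether a mimic changed the response to doxorubicin was tested as an interaction. None of the 10 genes passed with edgeR in any of the 3 interactions, where 0.0489% of all genes passed for miR-222, 0% for miR-455 and 0.0559% for both mimics. DESeq2 called 1, 0 and 1 members. Both DESeq2 calls were for Dkk3. Its log2 response to doxorubicin with miR-222 minus that with the control mimic was -1.5 ± 0.36 (edgeR adjusted p = 0.103), and with both mimics it was -1.81 ± 0.36 (edgeR adjusted p = 0.0627). With miR-455 the difference was -0.96 ± 0.36 (edgeR adjusted p = 0.372). Leaving out the 4 libraries with the fewest genes, edgeR called 2 members for miR-222 and 2 for both mimics, Dkk3 and Pdgfrb each time, where 1.02% and 11% of all genes were called. DESeq2 called 1.22% and 2.54% of all genes for these 2 interactions. No gene was called in any of the 3 interactions with close libraries counted as 1. In the fit of all libraries Pdgfrb differed the other way, by 1.61 ± 0.55 with miR-222 and 1.70 ± 0.55 with both (edgeR adjusted p = 0.322 and 0.194).

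A further test asked whether both mimics together did more or less than the sum of the single effects. With edgeR 0 of 10 members passed without doxorubicin and 0 of 10 with it, where 0.014% and 0.0419% of all genes did. DESeq2 called 0 and 1 members, the call being Dcn under doxorubicin, where DESeq2 called 1.72% of all genes. No gene was called for either with close libraries counted as 1. For Dkk3 the departure from the sum was -0.70 ± 0.36 without the drug and -0.05 ± 0.36 with it (edgeR adjusted p = 0.294 and 0.965). The 95% interval with the drug was -0.80 to 0.71. For Dcn it was 1.39 ± 0.35 with the drug (edgeR adjusted p = 0.151) and for Lum 2.35 ± 0.73 without it (edgeR adjusted p = 0.21).

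Within groups the members did not deviate as one block. Replicate 3 with both mimics and no drug was above its 2 close replicates for Lum (122 CPM, against 24.2 and 22.7 CPM in the others), Postn, Dcn and Acta2, and below them for Thy1, Dkk3, Tagln and Smtn. Replicate 3 with the miR-222 mimic alone was likewise above its 2 close replicates for Lum, Postn, Dcn, Acta2, Pdgfrb, Tagln and Smtn, and below them for Dkk3 and Pdgfra. Replicate 2 of doxorubicin with both mimics had the highest Acta2 of all 24 libraries and the lowest Pdgfrb and Smtn. The cardiomyocyte markers summed to 71124 CPM in that library, their highest value, against 30839 and 26668 CPM in its 2 replicates. Their part in these differences was not tested.

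**Figure D4:**
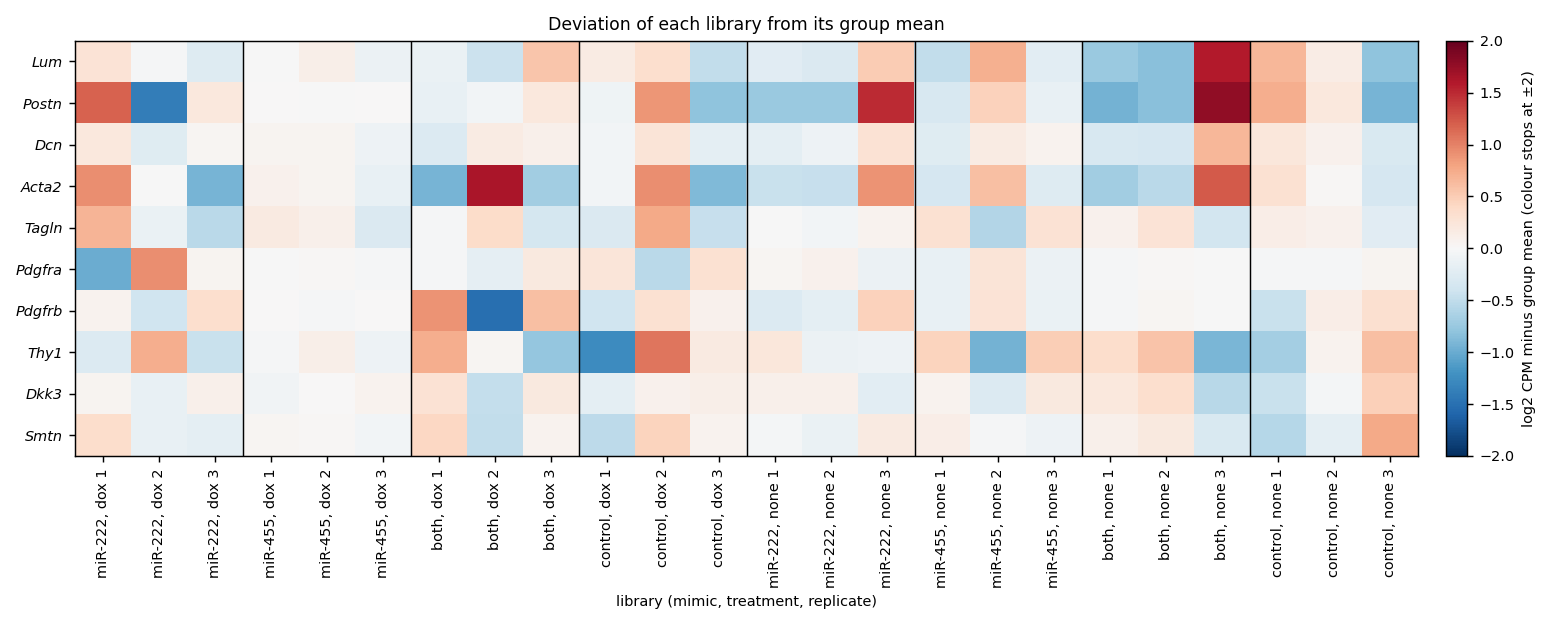
Deviation of each library from its group mean (log2 CPM, colour scale) for the 10 members, libraries grouped by treatment. Lum, Postn and Acta2 are all high in replicate 3 of both mimics without doxorubicin, where Thy1 and Dkk3 are low.

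Other genes of the same cells and pathways were read from lists chosen with earlier results known. Among 17 other fibroblast markers, doxorubicin averaged over the mimics raised 7 and lowered 0, with a median change of 0.42, against -0.02 over all genes and 48.1% of genes called. S100a4, a calcium-binding protein, rose by 1.70 ± 0.13, Dpt (dermatopontin) by 1.56 ± 0.19, Fbln1 (fibulin 1) by 1.08 ± 0.10 and Fstl1 (follistatin-like 1) by 0.95 ± 0.15. Of 6 other small leucine-rich proteoglycans, 3 rose and 0 fell. They were Fmod (1.14 ± 0.17), Prelp (1.01 ± 0.13) and Bgn (0.94 ± 0.10), and Epyc had 0.34 ± 0.67. Of 11 matricellular and activation genes, 7 rose and 1 fell, and Fn1, fibronectin, rose by 1.26 ± 0.11 and Sparc by 1.14 ± 0.10. The 2 other named genes of that list, Itga11 and Cthrc1, rose by 1.22 ± 0.12 and 0.70 ± 0.09. Doxorubicin raised 4 fibroblast markers, 3 proteoglycans and 6 matricellular genes when close libraries counted as 1, with 30.4% of all genes called. All 11 adjusted p-values of the called genes named in this paragraph were edgeR values under 0.05.

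The same lists fell in part with miR-222. Without the drug, the miR-222 mimic lowered 4 of 6 proteoglycans, 4 of 11 matricellular genes and 2 of 17 fibroblast markers and raised none of them, against 8.97% of all genes called. The log2 change was -1.16 ± 0.21 for Bgn (biglycan), -1.22 ± 0.21 for Fn1, -1.48 ± 0.25 for Itga11 and -1.09 ± 0.25 for S100a4 (edgeR adjusted p = 0.00241, 0.00199, 0.00146 and 0.0108). Both mimics lowered 2 of 6, 4 of 11 and 2 of 17, against 7.06% of all genes called. The miR-455 mimic lowered 0 of 6, 0 of 11 and 1 of 17, against 4.72%. Under doxorubicin the miR-222 mimic lowered 1, 2 and 2, both mimics 1, 2 and 2, and miR-455 0, 1 and 1. All genes called made up 3.95%, 5.55% and 2.5% in these 3 comparisons. With close libraries counted as 1, these 3 lists had 0 calls for each mimic without the drug. In that setting 1 proteoglycan and 1 fibroblast marker were lower with miR-222 under doxorubicin, against 1.22% of all genes called. Of the PDGF ligands Pdgfc was the 1 called for a mimic, with -1.83 ± 0.51 for miR-222 alone (edgeR adjusted p = 0.0303). Pdgfb rose with doxorubicin averaged over the mimics by 1.92 ± 0.61 (edgeR adjusted p = 0.0137), while Pdgfa and Pdgfd had 0.02 ± 0.17 and -0.08 ± 0.19. The level of Pdgfb was very low, with a median of 0.714 CPM and 0 in 3 libraries. Counting close libraries as 1, 0 PDGF ligands were called for miR-222 alone or for the averaged drug effect.

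Of 12 further smooth muscle genes 4 rose and 4 fell with doxorubicin averaged over the mimics, against 48.1% of all genes called in that comparison. Of the 12, 3 rose and 4 fell with close libraries counted as 1. Myl9, a myosin light chain, rose by 1.73 ± 0.13 and Cnn1, calponin, by 1.30 ± 0.16, while Synpo2 fell by 4.15 ± 0.18 and Lmod1, leiomodin, fell by 3.12 ± 0.42. Of SRF and its coactivators 3 of 4 fell (2 with close libraries counted as 1), with -3.10 ± 0.25 for Myocd, -1.07 ± 0.15 for Fhl2 and -0.77 ± 0.28 for Srf (edgeR adjusted p = 3.93e-09, 8.61e-06 and 0.0266), and Mrtfa had 0.11 ± 0.24. Myocd is also expressed by cardiomyocytes. Of 9 other mural markers 3 rose and 2 fell, a share near that of all genes. Abcc9 rose by 0.64 ± 0.16, Anpep by 0.45 ± 0.09 and Steap4 by 2.28 ± 0.53, and Cspg4, the pericyte proteoglycan NG2, fell by 2.06 ± 0.37. Anpep, an aminopeptidase, was higher with every mimic, by 0.88 ± 0.18 to 1.45 ± 0.18 over the 6 mimic comparisons. In each of these, 1 of the 9 mural markers was called higher, against 2.5% to 8.97% of all genes called. With close libraries counted as 1, each single mimic had 0 mural markers called higher, with and without doxorubicin. Both mimics had 1 in either case, and 0% to 1.8% of all genes were called over the 6 comparisons. Among the Dickkopf genes Dkk2 rose by 2.58 ± 0.54 (edgeR adjusted p = 5e-04), and Dkk4 and Dkkl1 had -0.30 ± 0.23 and 1.22 ± 0.87. The level of Dkk2 was very low, with a median of 0.592 CPM and 0 in 3 libraries.

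**Figure D5:**
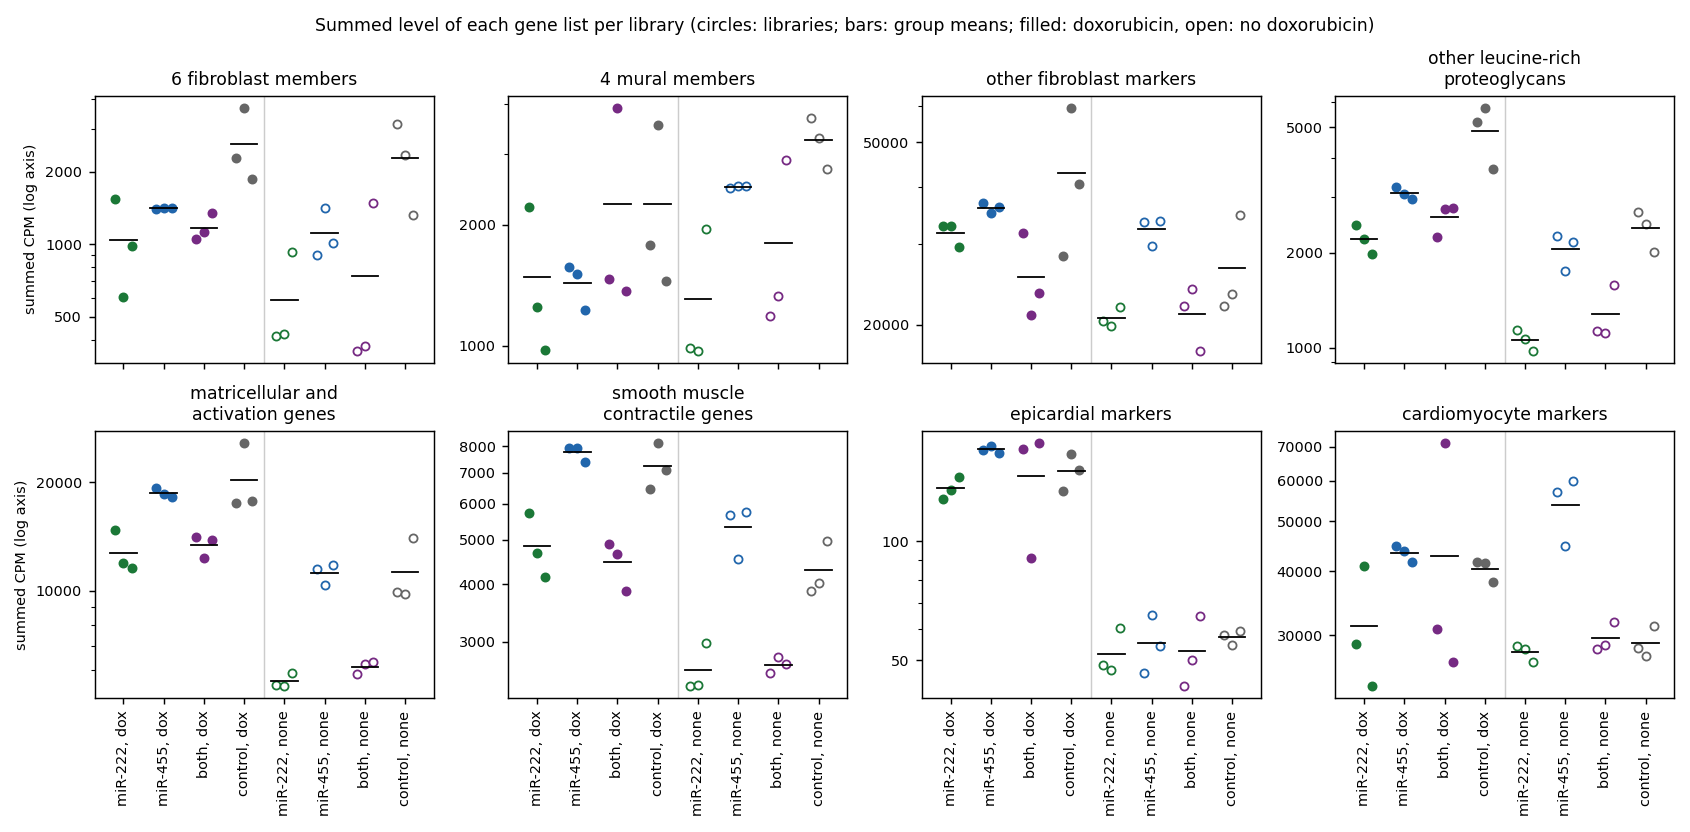
Summed CPM of the fibroblast members, the mural members and marker lists of other cell types in each library, by group with doxorubicin left of no doxorubicin (log axis). The 6 fibroblast members sum to 417 to 924 CPM with the miR-222 mimic alone, against 1327 to 3150 CPM with the control mimic alone. Postn alone makes 122 to 578 CPM and 795 to 2509 CPM of these. The 17 other fibroblast markers sum to 19830 to 21891 CPM and 21990 to 34603 CPM in the same 2 groups.

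Markers of other cell types were read in the same comparison, where 48.1% of all genes were called. With doxorubicin averaged over the mimics, 4 of 12 cardiomyocyte markers rose and 3 fell, near that share, and 5 of 6 epicardial markers rose and 0 fell. Counting close libraries as 1, 4 cardiomyocyte markers rose and 2 fell, and 3 epicardial markers rose and 0 fell, against 30.4% of all genes. Upk1b, an epicardial and mesothelial uroplakin, rose by 3.5 ± 0.21. The summed epicardial list ran from 90.8 to 178 CPM in the 12 doxorubicin libraries, against 43.1 to 65.3 CPM in the 12 libraries without it. For the miR-222 mimic alone, 0 cardiomyocyte markers rose and 1 of 12 fell, against 8.97% of all genes called. The summed list was 26604 to 28587 CPM there, against 27371 to 31342 CPM with the control mimic. With the miR-455 mimic alone 2 of 12 cardiomyocyte markers rose, against 4.72% of all genes called, and the summed list was 44868 to 59862 CPM. With close libraries counted as 1, 0 cardiomyocyte markers were called for either of these mimics alone. Of 7 endothelial markers, 2 rose and 1 fell with the drug, of 8 macrophage and leukocyte markers 1 rose and 2 fell, and of 3 Schwann cell markers 1 rose. Csf1r and Lyz2 were the 2 leukocyte genes that fell (-1.31 ± 0.45 and -0.97 ± 0.24), and endothelial Kdr, a VEGF receptor, had -3.71 ± 0.35. With close libraries counted as 1, 0 endothelial markers rose and 1 fell, and 1 leukocyte marker rose and 1 fell. The leukocyte sum had group means of 15.7 to 22.5 CPM with doxorubicin, against 11.9 to 15.6 CPM without it. For the endothelial sum they were 22.6 to 41.6 CPM, against 24.8 to 61.0 CPM. The part of these other cell types in the changes of the 10 genes was not tested.

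Across the 24 libraries each member had other genes with a similar profile, given as a description because the libraries share groups and scaling. Thy1 was most like Col6a2, a collagen VI chain (Pearson r = 0.92), then Plekhb2 and P4ha3 (r = 0.89 each). For Pdgfra the nearest were Pank3, Tmem164 and Gnb1 (r = 0.77, 0.71 and 0.70), the weakest of the 10 sets. Lum was nearest to Ptn, pleiotrophin, then Hnrnph1 and Vsnl1 (r = 0.96, 0.92 and 0.92). Dcn was nearest to Poglut3, Pmpcb and Sqor (r = 0.94, 0.90 and 0.90). Postn had Aspn, which encodes the proteoglycan asporin, then Gask1b and Myof (r = 0.93, 0.93 and 0.91). Dkk3 had RGD1310352, Gnai2, a G protein subunit, and Arl2bp (r = 0.94, 0.90 and 0.89). For Pdgfrb they were Fbn1, fibrillin 1, Tril and Kirrel1 (r = 0.87, 0.87 and 0.86). Acta2 had Scn3b, a sodium channel subunit, Zfp622 and Xirp2, a Xin repeat protein of striated muscle (r = 0.92, 0.92 and 0.91). Tagln had Lgals9, galectin 9, Pdgfrl and Nid1, nidogen 1 (r = 0.91, 0.90 and 0.88). Smtn had Slc6a6, the taurine transporter, Npepo and Sae1 (r = 0.87, 0.86 and 0.83).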

How the data were processed

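The deposited table holds 21767 gene symbols in 24 libraries, and its values are expected counts that the authors estimated per gene. Per the submitters' processing notes, Salmon, DESeq2 and the rat build Rnor_6.0 were used, with versions, annotation and the role of each tool not given in the sources used here. Of the values, 7.35% (38406) were not whole and were rounded. The origin of the replicates and the filter behind the table are not stated in the labels.

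Analysis used R 4.3.3. Genes were kept by filterByExpr with the 8 groups (14303 genes), scaled by TMM, and fitted in edgeR 4.0.16 with 1 mean per group over all 24 libraries (16 residual degrees of freedom). The quasi-likelihood F test gave p-values, adjusted by Benjamini-Hochberg over all tested genes within each of 16 comparisons, and a gene was called at an adjusted p under 0.05. Standard errors (SE) were taken as the absolute log2 fold change over the root of F. DESeq2 1.42.0 served as an alternative. With 3 libraries a group, an exact permutation test could not go below p = 0.1, so none is given. The steps were tested on simulated counts. Levels in CPM are means of 3 libraries where not given singly.

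The 10 genes and all lists were chosen with earlier results of these data known. Names were drawn from all members, the 4 genes per other list with the smallest p for the averaged doxorubicin effect, the lists of 5 or fewer, and the 3 genes most like each member by Pearson r of log2 CPM. Alternatives changed the size factors, the test, the filter, the groups fitted, the replicate block, the mitochondrial transcripts and the libraries used.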

Additional observations from a re-analysis of the deposited data

How the results depend on the processing

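Of 610 refits of the called member values none changed sign; of 2260 refits of the others, 113 changed sign without passing in either fit. Outside the leave-one-out fits, 253 refits of called values kept the call, 57 lost it, and 39 refits of uncalled values gained one. Numbers of members called moved by more than 1.5 times as follows, and the cause was not tested. For doxorubicin with the control mimic, 3 became 1 with the compared groups alone, 5 without the 4 libraries with the fewest genes and 1 with close libraries counted as 1. With miR-222, 2 became 0 without a filter, with the replicate block, without mitochondrial transcripts and with close libraries as 1. With miR-455, 2 became 0 with close libraries as 1. With both mimics, 1 became 2 with DESeq2 size factors and with the DESeq2 test, 0 with the compared groups alone, 4 without the 4 libraries and 0 with close libraries as 1. The averaged drug effect moved from 5 to 2 with close libraries as 1. Without doxorubicin, the 7 calls for miR-222 became 4 with the compared groups alone and 0 with close libraries as 1; the 2 for miR-455 became 5 with DESeq2, 0 with the compared groups alone, 1 with the replicate block, 5 without the 4 libraries and 0 with close libraries as 1; and the 6 for both mimics became 0 with the compared groups alone and 1 with close libraries as 1. With doxorubicin, the 3 calls for miR-222 became 1 with close libraries as 1, the 2 for miR-455 became 4 without the 4 libraries and 0 with close libraries as 1, and the 2 for both mimics became 1 with the compared groups alone and 4 without the 4 libraries. The interactions with miR-222 and with both mimics moved from 0 to 1 with DESeq2 and to 2 without the 4 libraries, and the departure from the sum with doxorubicin from 0 to 1 with DESeq2. Leaving out 1 library at a time gave 2 to 4, 0 to 1, 1 to 2 and 0 to 3 calls for doxorubicin with the control, miR-222, miR-455 and both mimics, and 5 to 7 for the averaged effect. For miR-222, miR-455 and both mimics it gave 0 to 5, 0 to 4 and 1 to 6 without doxorubicin and 1 to 4, 1 to 2 and 2 to 2 with it. The 3 interactions gave 0 to 0, 0 to 0 and 0 to 1, and both departures from the sum 0 to 0. The share of all genes called moved too, for example from 8.97% to 0.316% for miR-222 without doxorubicin when close libraries counted as 1 and to 19.6% without the 4 libraries. With the compared groups alone it was 0% for both mimics without doxorubicin, 0.0155% for miR-455 alone and 3.7% for miR-222 alone. For both mimics under doxorubicin it was 0.0154%. For doxorubicin in that setting it was 11.1% with the control mimic and 0.0384% with both mimics. Without the 4 libraries it was 37.9% and 32.9% for these 2 comparisons. It was then 13.8% for miR-455 alone, and 5.03% and 13.0% for miR-455 and both mimics under doxorubicin. The Dkk3 calls for doxorubicin with the control mimic and for miR-222 and both mimics under doxorubicin were kept in all 9 alternatives and all 6 leave-one-out fits. The p-values assume that the close libraries are independent samples, which the labels do not settle. Replicate numbers are not stated to mark a shared culture. Over 84 same-numbered pairs the correlation of deviations from the group means ran from -0.58 to 0.45, with 16 above 0.1. All 3 pairs were above 0.1 for 1 of 28 pairs of groups, miR-222 alone and both mimics without the drug (0.32, 0.32 and 0.43). These groups are not compared directly here, but both enter the departure from the sum without doxorubicin. For the control mimic with and without the drug, which are compared, the values were 0.42, 0.07 and 0.37. The replicate block is therefore an alternative only; it also moved 7 calls to 5 for miR-222 and 6 to 4 for both mimics without doxorubicin.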
